A study of Mus musculus with 19 samples.

Results

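Insulation was scored along the whole captured region around the mouse Shh gene and examined in the bins that lie beyond both borders of the Shh domain. The insulation score of a 10 kb bin is the log2 of the mean contact signal in the 10 by 10 bin square that spans the bin, over the mean of all such squares along the same map. A low score marks a bin across which the 100 kb on either side contact each other little, and a local minimum is a bin with the lowest score within 100 kb on either side. Of the 280 bins of each map, 260 had 10 bins on each side and were scored. The windows of both borders held 42 of these and were left out, which left 218 bins: 79 in the lower flank, 69 in the domain interior and 70 in the upper flank. The minima were chosen by the score itself in each map, so their depth is given as a description.

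The maps come from capture Hi-C, a method that cuts fixed chromatin, ligates ends that lie close together, pulls down the fragments of a chosen region and sequences them as pairs. The 19 samples fall into 9 groups, and each group was deposited as 1 merged map. The tissues of wild type genotype were midbrain (2 samples, C57BL/6), embryonic stem (ES) cells (2 samples, G4) and limb bud (3 samples, C57BL/6). Limb buds on the G4 strain, with 2 samples each, carried 1 of 5 alleles. These were deltaCTCF i4i5, which lacks the CTCF sites named i4 and i5, deltaCTCF i4i5ZRS, which also lacks a CTCF site named for the ZRS, delta-CTCF i4i5ZRSreg, which lacks i4 and i5 together with the element named ZRSreg, deltaZRSreg, and Lmbr1deltaprom/deltaprom, which lacks the promoter of Lmbr1. Midbrain on the G4 strain with the i4i5ZRS allele completed the set (2 samples). All embryos were at E10.5. 1 of the ES cell samples carries that stage in its labels too.

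Several features of the groups limit what a comparison between them can show. Every allele was on the G4 strain, while wild type limb and midbrain were C57BL/6, so genotype and strain cannot be told apart in a comparison of an allele with wild type. ES cells differ from wild type limb in strain as well as in cell type, but share the G4 strain with the limb alleles and with midbrain i4i5ZRS, whose values stand beside theirs below. Per the series design, mutant samples were technical replicates. The titles give 2 of the 3 samples of wild type limb the same library number. Because the maps were merged before deposit, no value has a replicate error and no test was run. Intervals are 95% intervals of the contact counts and cover counting error only. Total contacts in the region ran from 1177173 in limb i4i5 to 3218492 in ES cells, and a square held between 2625 and 37998 contacts, which gave counting errors of 0.01 to 0.03 on the log2 scale.

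Domains of this kind are stretches of chromatin whose parts contact each other more often than they contact the neighbouring stretch. They form where the ring-shaped cohesin complex extrudes loops until it meets CTCF, a DNA-binding protein, bound at sites that face the incoming loop. The Shh domain joins a gene for a secreted morphogen, Sonic hedgehog, needed for digit and neural tube patterning, to distant enhancers such as the ZRS, which drives its expression in the limb from within an intron of Lmbr1. In the GRCm38.p6 gene table the order along chromosome 5 is Insig1, En2, Cnpy1, Rbm33, Shh, Rnf32, Lmbr1, Nom1, Mnx1, Ube3c and Dnajb6. Insig1 encodes a regulator of sterol synthesis, En2 and Mnx1 encode homeobox transcription factors of the midbrain-hindbrain region and of motor neurons, and Dnajb6 encodes a co-chaperone. The files use the mm9 build, for which no gene annotation was used here, so no gene is assigned to a bin. Distances are counted in kb between bin starts, from the bin that holds most of the Shh promoter viewpoint (chr5:28790001-28800000), with minus signs below Shh.

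The 9 maps held 71 local minima beyond the border windows, 29 in the lower flank, 15 in the domain interior and 27 in the upper flank. Each map had 8, apart from limb i4i5 with 7. When minima of different maps within 30 kb of each other were joined, they fell at 13 positions, 5 in the lower flank, 4 in the domain interior and 4 in the upper flank. The minima were shallow beside the borders themselves. At the borders the lowest scores were -1.55 to -0.95 (lower) and -0.84 to -0.52 (upper), while the deepest minimum elsewhere was -0.53, in ES cells at -360 kb. Outside ES cells the deepest was -0.34, in wild type limb at the same bin.

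**Figure D1:**
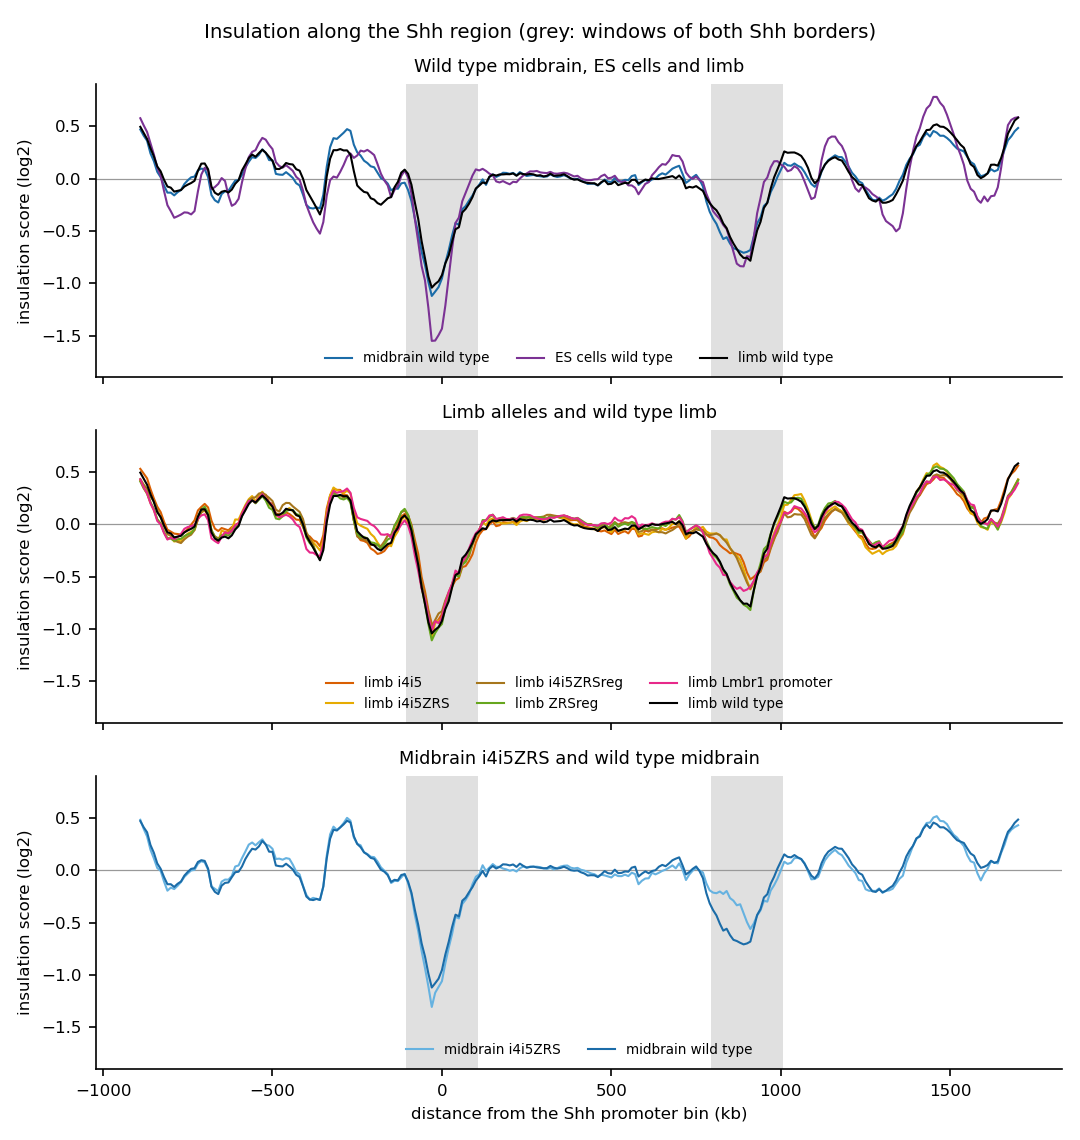
Insulation score (log2) against distance from the Shh promoter bin (kb) for wild type midbrain, ES cells and limb (top), for the limb alleles and wild type limb (middle) and for midbrain with and without the i4i5ZRS allele (bottom), with 1 line per merged map and both border windows in grey. The dips outside the grey windows are shallower than those inside, and the stretch between the windows is nearly flat.

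Of the 13 positions, 3 held a minimum within 30 kb in all 9 maps: -790 kb (chr5:28000001-28010000), -360 kb (chr5:28430001-28440000) and 1100 kb (chr5:29890001-29900000). At 1590 kb (chr5:30380001-30390000) 7 maps did. The other 2 maps, limb ZRSreg and the Lmbr1 promoter allele, had their minimum at 1640 kb, 50 kb away, and were joined to it only through the minima at 1610 kb of limb i4i5ZRS and i4i5ZRSreg. A further position, 1300 kb (chr5:30090001-30100000), held one in 8 maps, and the ES cell map had its minimum instead at 1340 kb (chr5:30130001-30140000). The deepest of the 3 shared positions was -360 kb. Its score was -0.28 in both midbrain maps, -0.53 in ES cells, between -0.33 and -0.21 in the 5 limb alleles and -0.34 in wild type limb, so ES cells stood below every other map there. The position at 1590 kb was a minimum only relative to its surroundings. The score of the bin at 1590 kb was -0.10 in midbrain i4i5ZRS, 0.02 in wild type midbrain, -0.23 in ES cells, between -0.02 and 0.03 in the limb alleles and 0.01 in wild type limb, and 3 of the 71 minima, all at this bin, had a score above 0. At their own minima, at 1610 or 1640 kb, limb i4i5ZRS scored -0.05, ZRSreg -0.05, the Lmbr1 promoter allele -0.02 and i4i5ZRSreg -0.003.

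The remaining positions were held by some maps and not by others. A minimum lay at -660 kb (chr5:28130001-28140000) in 6 maps, 2 of midbrain and 4 of limb, and the ES cell map had its minimum at -620 kb (chr5:28170001-28180000). The position at -180 kb (chr5:28610001-28620000) held a minimum in 4 of the 6 limb maps and in 0 of the 3 maps of midbrain and ES cells. In the domain interior, 580 kb (chr5:29370001-29380000) held one in 7 maps, 460 kb (chr5:29250001-29260000) in 4, and 220 kb (chr5:29010001-29020000) and 720 kb (chr5:29510001-29520000) in 2 each.

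Some of these absences turned on the reach of 100 kb that the list uses. At -180 kb the minima of wild type limb, ZRSreg and i4i5ZRSreg were the lowest bins within exactly 100 kb. The same bin in limb i4i5ZRS was the lowest within 90 kb, with a score of -0.22, and so was not listed. At -660 kb the bin in limb i4i5, at -0.06, and in i4i5ZRSreg, at -0.13, likewise reached 90 kb. The ES cell map had a bin of that kind at 430 kb, with a score of -0.01. Close to the ends of the map, 6 of the 71 minima lacked 10 scored bins on 1 side.

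**Figure D2:**
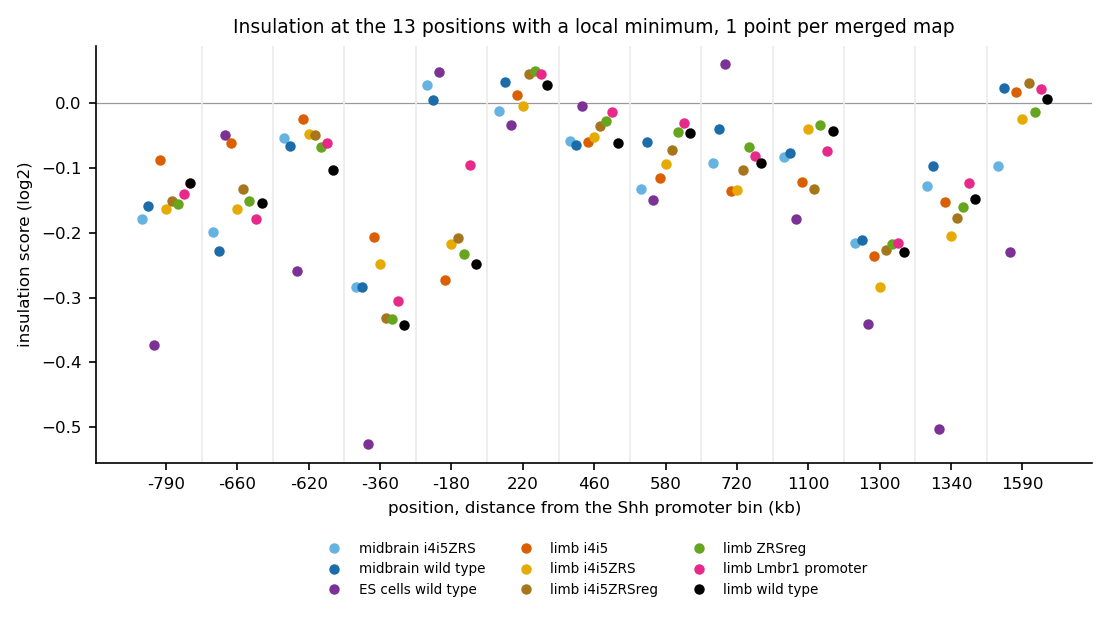
Insulation score (log2) of each of the 9 merged maps at the 13 positions that held a local minimum in at least 1 map, given by their distance from the Shh promoter bin (kb), with 1 point per map. ES cells lie lowest at -790, -360, 1340 and 1590 kb, and the limb maps lie below midbrain and ES cells at -180 kb.

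The domain interior was nearly flat in every map. The SD of the score over its 69 bins was between 0.05 and 0.08, against 0.17 to 0.25 in the lower flank and 0.19 to 0.34 in the upper flank. The 15 minima there lay between -0.15 and -0.01. The observed over expected contact (signal divided by the average of its map for that separation) across a bin was also set against that within the 100 kb on either side. Its numerator comes from the same square as the score that chose the minima, so low values at the positions are partly fixed by that choice and are given as a description. The square also holds longer separations than the sides do, so the ratio compares unlike separations. At all 4 interior positions the log2 of this ratio was above 0 in all 9 maps, from 0.02 at 580 kb to 0.27 at 720 kb. How contact across these bins compares with contact beside them at equal separation was not tested. At 8 of the 9 flank positions the log2 ratio was below 0 in all 9 maps, and at -180 kb in 8 of 9. The ratio was lowest at 1340 kb, where it reached -0.75 in 1 map, and lay between -0.65 and -0.50 at -360 kb.

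Several positions lay in bins with few contacts before balancing. Relative to the 20 neighbouring bins, the log2 of the contact count of the bin was between -1.73 and -1.27 at 580 kb, between -1.55 and -1.31 at 1590 kb, and between -1.06 and -0.78 at -660 kb. It lay between -0.87 and -0.64 at 1100 kb and between -0.78 and -0.61 at 460 kb. At 1340 kb it lay between -0.65 and -0.53 and at -180 kb between -0.45 and -0.21. At -360 kb and -790 kb it lay between -0.06 and 0.19, so these bins were covered about as well as their neighbours. The part of coverage in the minima was not tested. Without balancing the position at 1100 kb held a minimum in all 9 maps, 580 kb, 460 kb and -660 kb held one in 0 maps, and -360 kb also in 0. With 15 by 15 squares the position at 1100 kb held one in 0 maps and -360 kb in 7.

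Midbrain and limb were compared first, to ask whether the structure around the Shh domain differs between tissues of the same stage. Wild type midbrain differed from wild type limb by 0.2 or more at 12 of the 218 bins (5.5%). All 12 were higher in midbrain and formed a single run in the lower flank, chr5:28510001-28630000, from -280 to -170 kb. The mean score over the run was 0.19 in wild type midbrain and -0.08 in wild type limb, a difference of 0.27. The difference peaked at -240 kb, where the score was 0.22 in midbrain and -0.10 in limb, a difference of 0.32 (counting interval 0.29 to 0.35). In the opposite direction the largest difference was at -410 kb, with -0.15 in midbrain and 0.00 in limb (difference -0.15, interval -0.19 to -0.11). Over all 218 bins, the run included, 83% lay within 0.1.

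The same stretch stood apart in the tissue pair that shared strain and allele. Midbrain i4i5ZRS was higher than limb i4i5ZRS by 0.2 or more at 7 bins (3.21%), from -250 to -240 kb and from -210 to -170 kb, and lower by that much at 0. The largest difference was at -190 kb, where the score was 0.08 in midbrain i4i5ZRS and -0.17 in limb i4i5ZRS (difference 0.26, interval 0.22 to 0.29). Both tissue pairs also match in library numbers, the wild type pair with the earliest numbers in the titles and the i4i5ZRS pair with consecutive later ones. Midbrain with and without the allele differed little. The difference between midbrain i4i5ZRS and wild type midbrain reached 0.2 at 0 bins (0%), with 99.1% of bins within 0.1.

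Over the 12 bins of the lower flank the mean score was 0.21 in midbrain i4i5ZRS, 0.19 in wild type midbrain and 0.19 in ES cells. In limb it was -0.11 in i4i5, -0.01 in i4i5ZRS, -0.08 in i4i5ZRSreg, -0.08 in ZRSreg, 0.06 in Lmbr1deltaprom/deltaprom and -0.08 in wild type. The midbrain and limb maps did not overlap, and the limb map closest to midbrain was that of the Lmbr1 promoter allele. The 12 bins were chosen because wild type midbrain scored higher there than wild type limb. The order of those maps is therefore fixed by the choice, and the means are given as a description. On these same bins and contacts, the separation of midbrain from limb held under 7 other ways of computing the score, which is no independent support. With 5 by 5 squares, the setting with the smallest values on the balanced signal, means were 0.12 or more in midbrain and 0.03 or less in limb. Without balancing the means were 0.60 or more in midbrain and 0.45 or less in limb.

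**Figure D3:**
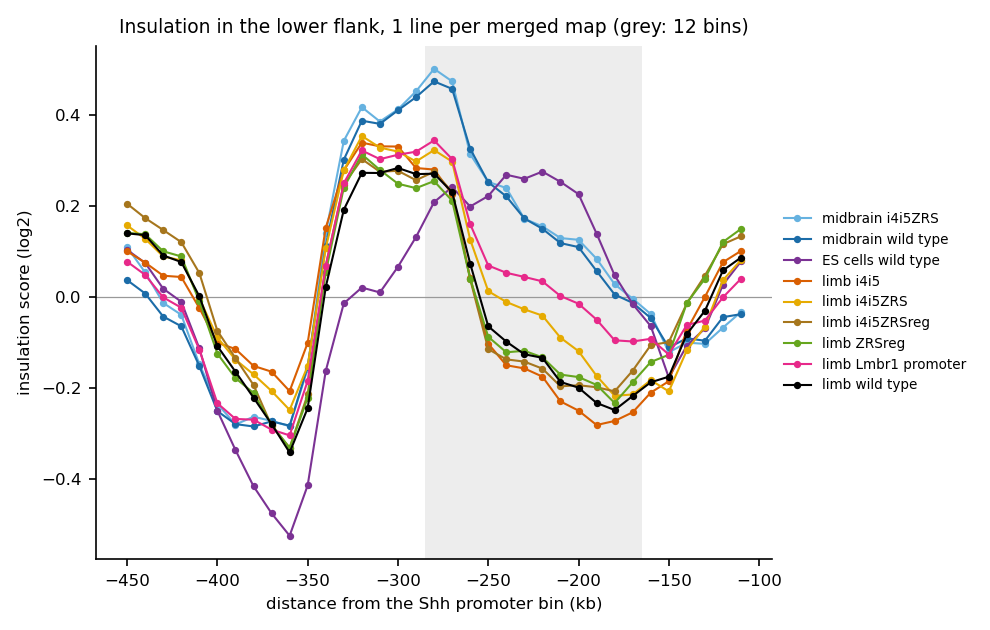
Insulation score (log2) of the 9 merged maps against distance from the Shh promoter bin (kb) in the lower flank, with 1 line and 1 point per bin for each map and the 12 bins of the midbrain over limb run in grey. Between -250 and -180 kb both midbrain maps and the ES cell map lie above all 6 limb maps, with the Lmbr1 promoter allele highest among limb, and at -360 kb all maps dip.

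Split by separation, the extra contact across these bins in midbrain was largest at long range. More contact across them in wild type midbrain than in wild type limb is partly fixed, since the score chose the bins. At 130 to 200 kb the observed over expected contact across the 12 bins was 1.18 in both midbrain maps and 1.32 in ES cells, and 0.90 to 1.05 in the 6 limb maps. At 20 to 60 kb it was 1.12 in midbrain i4i5ZRS, 1.07 in wild type midbrain, 1.01 in ES cells and 0.95 to 1.02 in limb. Contact within the 100 kb above the stretch, towards Shh, was 1.02 in midbrain i4i5ZRS, 1.00 in wild type midbrain and 1.06 to 1.16 in limb, lower in both midbrain maps. Contact within the 100 kb below it was 1.12 and 1.08 in these midbrain maps, within the limb range of 1.05 to 1.14. The contact count of the stretch before balancing, relative to its neighbours, was 0.19 and 0.12 (log2) in the midbrain maps and 0.13 to 0.21 in limb, and these ranges overlap.

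Across all bins, the 2 midbrain maps lay wholly outside the range of the 6 limb maps at 45 of 218 bins (20.6%), 23 higher (10.6%) and 22 lower (10.1%). The longest run was 18 bins from -330 to -160 kb, with a mean of 0.24 in midbrain and 0.04 in limb. Lower scores in midbrain flanked it, at -430 to -390 kb with means of -0.15 in midbrain and -0.03 in limb, and at -130 to -110 kb with -0.06 in midbrain and 0.05 in limb. Of the 13 positions, 2 were without overlap. At -660 kb the midbrain maps were lower (-0.20 and -0.23, against -0.18 to -0.06 in limb). At -180 kb they were higher.

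Among the listed positions, the score differed between midbrain and limb by 0.2 or more only at -180 kb, in both tissue pairs. This position was listed through limb maps alone, so a low score in limb is partly fixed by that choice. The score at -180 kb was 0.03 in midbrain i4i5ZRS, 0.00 in wild type midbrain and 0.05 in ES cells. In limb it was -0.27 in i4i5, -0.22 in i4i5ZRS, -0.21 in i4i5ZRSreg, -0.23 in ZRSreg, -0.10 in the Lmbr1 promoter allele and -0.25 in wild type. All 6 limb maps lay below the other 3. The difference was 0.25 (interval 0.22 to 0.29) for wild type midbrain over wild type limb and 0.25 (0.21 to 0.28) for midbrain i4i5ZRS over limb i4i5ZRS. With 15 by 15 squares no map held a minimum here.

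ES cells departed from wild type limb far more than midbrain did. The difference reached 0.2 at 46 of 218 bins (21.1%), 18 higher (8.26%) and 28 lower (12.8%), in 10 runs, with 21 of the bins in the lower flank, 2 in the domain interior and 23 in the upper flank. The profile as a whole was more uneven in ES cells, with an SD over the 218 bins of 0.25, against 0.16 to 0.18 in the other maps. At the 13 positions the ES cell map was the lowest of the 9 at 9 and the highest at the other 4. Its lowest values were thus below those of the 6 other G4 maps as well. At -360 kb the score was -0.53 in ES cells, against -0.28 in midbrain i4i5ZRS and -0.33 to -0.21 in the limb alleles. The positions were chosen by this same score. Those at -620 and 1340 kb were listed only through ES cells, and 220 kb only through ES cells and midbrain i4i5ZRS. Low ES cell values there are partly fixed by that choice, and the count was not set against all 218 bins.

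The largest excess in ES cells over wild type limb lay in the same lower-flank stretch as in midbrain. At -210 kb the score was 0.25 in ES cells and -0.19 in wild type limb, a difference of 0.44 (interval 0.41 to 0.47), and the run extended over 9 bins from -250 to -170 kb. The ES cell and midbrain comparisons share the wild type limb map. Just below this run the sign turned, in a run of 4 bins from -330 to -300 kb with means of 0.02 in ES cells and 0.26 in wild type limb. In midbrain these bins were not lower: at -310 kb the score was 0.39 in midbrain i4i5ZRS, 0.38 in wild type midbrain, 0.01 in ES cells and 0.27 in wild type limb. The stretch with a high score was therefore shorter in ES cells than in midbrain, as the plot of the lower flank shows.

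In the upper flank ES cells had a deep minimum at 1340 kb. The score at this bin was -0.13 in midbrain i4i5ZRS, -0.10 in wild type midbrain, -0.50 in ES cells, between -0.21 and -0.12 in the limb alleles and -0.15 in wild type limb. The difference of ES cells over wild type limb was -0.35 (interval -0.40 to -0.31), and the largest deficit of all bins lay next to it, at 1350 kb (-0.47 in ES cells and -0.09 in wild type limb, difference -0.39, interval -0.43 to -0.35). All other maps had their minimum at 1300 kb, where ES cells also scored lowest (-0.34, against -0.28 to -0.21 in the other 8 maps). Beyond it ES cells were higher, with 0.78 in ES cells and 0.51 in wild type limb at 1450 kb, and lower again from 1550 to 1590 kb and from 1610 to 1640 kb.

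ES cells passed 0.2 at 3 further positions. At -790 kb the score was -0.18 in midbrain i4i5ZRS, -0.16 in wild type midbrain, -0.37 in ES cells, between -0.16 and -0.09 in the limb alleles and -0.12 in wild type limb, so that ES cells differed from wild type limb by -0.25 (interval -0.28 to -0.22). At 1590 kb the difference was -0.24 (interval -0.29 to -0.18), and at -180 kb it was 0.30 (interval 0.27 to 0.33). At -360 kb, the deepest ES cell minimum, it was -0.18 (interval -0.21 to -0.15) and did not reach 0.2. Of the ES cell differences past 0.2 at positions, only that at 1340 kb kept this size in all 7 other settings. With 5 by 5 squares the values were -0.13 at -790 kb, -0.09 at 1590 kb and 0.11 at -180 kb, and without balancing the value at -790 kb was -0.15.

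**Figure D4:**
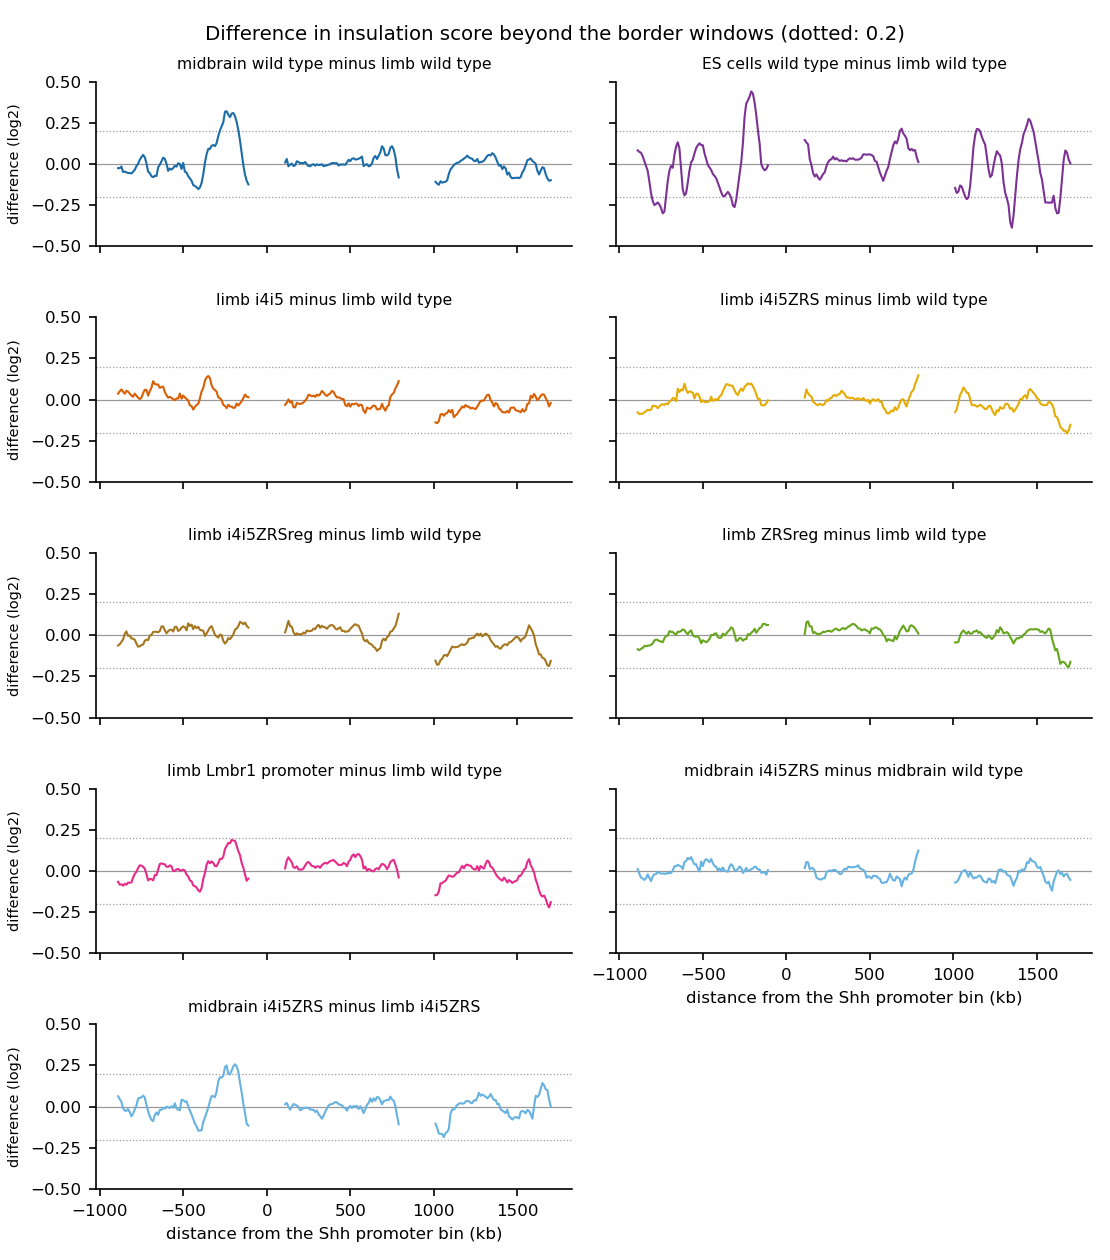
Difference in insulation score (log2) between the 2 merged maps named above each panel, against distance from the Shh promoter bin (kb), with the border windows left out and dotted lines at 0.2 on either side of 0. Both midbrain over limb panels and the ES cell panel exceed 0.2 between -280 and -170 kb, while the limb alleles stay within 0.2 apart from the upper end of the map.

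The positions were then compared by a measure that the score does not hold, the contact between pairs of positions 200 to 600 kb apart in the same stretch, as observed over expected in 3 by 3 bins. In ES cells the counting interval lay above those of all other maps at 2 of the 14 pairs, and both include a position at which, with the score as used here, only ES cells had a minimum. That does not hold for all settings: with observed over expected values -620 kb held a minimum in 5 maps, with separations under 5 bins left out in 4, and 1340 kb held one in 8 maps without balancing and in 2 with 15 by 15 squares. Contact between 1340 and 1590 kb was 2.80 in ES cells (interval 2.59 to 3.03), against 1.66 to 2.16 in the other 8 maps and 1.95 (1.78 to 2.14) in wild type limb. Contact between -620 and -360 kb was 2.03 in ES cells (1.94 to 2.13), against 1.42 to 1.78 in the other maps and 1.78 (1.68 to 1.87) in wild type limb. Because -620 and 1340 kb were listed only through ES cells, reading all maps at these bins may favour ES cells. At -660 and 1300 kb, listed through other maps, ES cells did not stand apart. Contact in ES cells was 1.51 between -660 and -360 kb and 1.70 between 1300 and 1590 kb, both within the range of the other maps. The excess in ES cells is thus not separate from the choice of bins.

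Other pairs had high contact in every map. Contact between 1300 and 1590 kb was 1.49 to 1.86 over the 9 maps, and between -660 and -360 kb it was 1.51 in ES cells, 1.77 in ZRSreg and 1.75 in wild type limb, with the lowest value in wild type midbrain. In each map the median of blocks at the same separation in the same stretch was 0.79 to 0.92 for the first pair and 0.94 to 1.05 for the second. Contact between -660 and -180 kb was 1.57 in both midbrain maps, 1.59 in ES cells, 1.53 in wild type limb and 1.42 to 1.71 in the limb alleles. Midbrain thus lay within the limb range. Between -620 and -180 kb it was 1.34 in wild type midbrain, 1.59 in midbrain i4i5ZRS, 1.57 in ES cells, 1.41 in wild type limb and 1.18 to 1.37 in the limb alleles. The position at 1100 kb did not share this pattern: its contact with 1300 kb was 0.80 to 1.05 and with 1340 kb 0.72 to 0.89, with medians of other blocks between 0.75 and 0.97. In the domain interior the pairs were closer to the level of other blocks, as at 220 and 460 kb (1.26 to 1.43, with medians of 1.11 to 1.23), and contact between 460 and 720 kb was 0.93 to 1.16, with medians of 1.14 to 1.27.

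**Figure D5:**
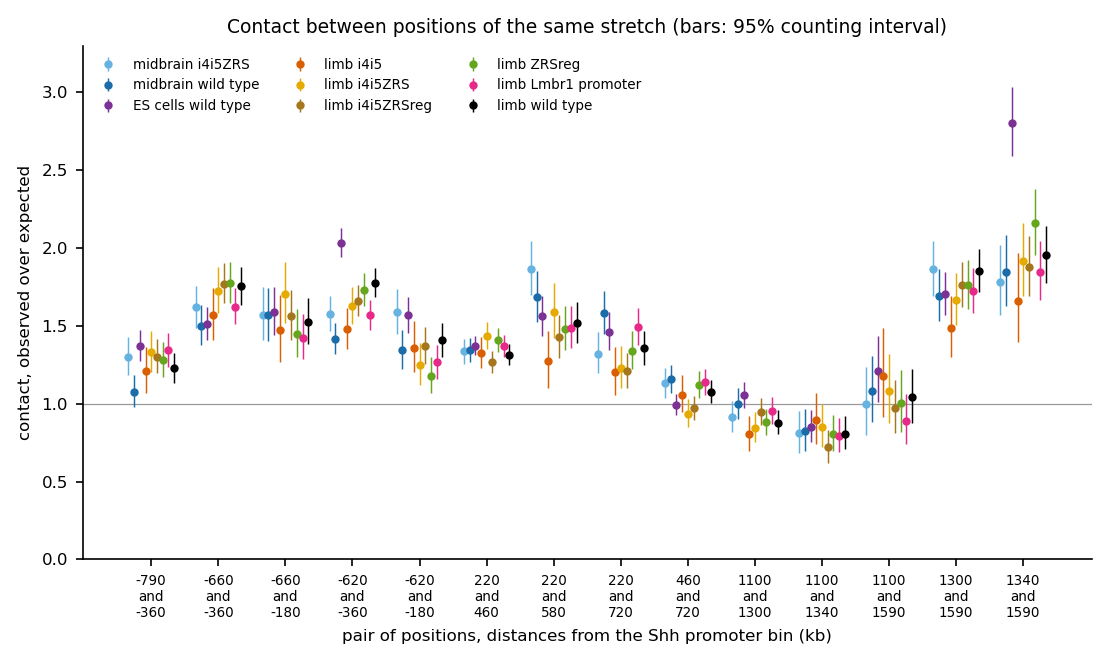
Observed over expected contact in 3 by 3 bins between pairs of positions of the same stretch, named by their distances from the Shh promoter bin (kb), with 1 point per merged map and bars for the 95% counting interval. The ES cell points for -620 and -360 kb (2.03) and for 1340 and 1590 kb (2.80) lie above those of all other maps. The positions at -620 and 1340 kb were listed only through ES cells.

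Few bins of the limb alleles differed from wild type by 0.2 or more beyond the borders. These comparisons ask whether loss of the CTCF sites, of ZRSreg or of the Lmbr1 promoter reaches past the Shh domain's own borders. Over wild type limb, the difference reached 0.2 at 0 bins for i4i5 (0%), 1 bin for i4i5ZRS (0.459%), 0 bins for i4i5ZRSreg (0%), 0 bins for ZRSreg (0%) and 2 bins for the Lmbr1 promoter allele (0.917%). Between 88.1% and 96.3% of bins lay within 0.1 of wild type, and the SD of the difference was 0.05 to 0.07. At the 13 positions the 65 differences ran from -0.09 to 0.15, and 0 reached 0.2. These 5 comparisons share the wild type limb map.

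The 2 largest of those 65 differences were in the lower flank. At -180 kb the Lmbr1 promoter allele scored -0.10, against -0.25 in wild type limb (difference 0.15, interval 0.12 to 0.18), in the stretch where midbrain and ES cells were higher. The largest excess of this allele over wild type among all 218 bins lay there too, at -210 kb, with 0.00 in the allele and -0.19 in wild type limb (difference 0.19, interval 0.16 to 0.22). At -360 kb limb i4i5 scored -0.21, against -0.34 in wild type limb (difference 0.13, interval 0.10 to 0.17). This was the shallowest value of the 9 maps at that position and came from the map with the fewest contacts.

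The 3 limb maps without i4 and i5 were set against the 3 that keep them. They lay wholly outside each other's range at 42 of 218 bins (19.3%), 13 higher (5.96%) and 29 lower (13.3%) in the maps without the sites. A split of the same maps by library number, given below, left 44 bins (20.2%) without overlap, with a longest run of 11 bins. Such a share is thus not particular to i4 and i5. In the split by i4 and i5 the longest run was 11 bins in the upper flank, from 1120 to 1220 kb. Mean scores there were 0.06 in i4i5, 0.08 in i4i5ZRS and 0.07 in i4i5ZRSreg, and 0.13 in ZRSreg, 0.13 in the Lmbr1 promoter allele and 0.12 in wild type. In midbrain the score over the same bins was 0.10 with the i4i5ZRS allele and 0.14 in wild type. The gap was -0.06 on average in limb. Wild type midbrain and limb differed by 0.27 over the lower-flank run, which was chosen for its large difference. Over the 11 bins from 1120 to 1220 kb the tissues lay closer than the gap, at 0.14 and 0.12 in wild type midbrain and limb. With the i4i5ZRS allele midbrain and limb had 0.10 and 0.08.

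Nearer the upper border the maps without i4 and i5 differed in both directions. From 770 to 790 kb, the last 3 bins before the border window, mean scores were -0.09 in i4i5, -0.06 in i4i5ZRS and -0.09 in i4i5ZRSreg, and -0.15 in ZRSreg, -0.17 in the Lmbr1 promoter allele and -0.18 in wild type. Midbrain had -0.11 with the i4i5ZRS allele and -0.20 in wild type. The squares of these bins reach into the border window, where the border lies. Further into the domain the sign turned, with runs of lower scores between 580 and 730 kb. From 650 to 680 kb the means were -0.04 in i4i5, -0.03 in i4i5ZRS and -0.07 in i4i5ZRSreg, and 0.01 in ZRSreg, 0.03 in the Lmbr1 promoter allele and 0.01 in wild type. Of the 13 positions, 3 were without overlap: 1 higher, at -620 kb, and 2 lower, at 580 and 720 kb. Over all 218 bins the share was 19.3%. The nearest maps of the sets, i4i5ZRSreg and wild type, differed by -0.03 at 580 kb (interval -0.07 to 0.02) and -0.01 at 720 kb (-0.05 to 0.03). At -620 kb the nearest were i4i5ZRSreg (-0.05) and the Lmbr1 promoter allele (-0.06), with counting errors of 0.02 each. These gaps are within counting error. At 720 kb the scores were -0.14 in i4i5, -0.13 in i4i5ZRS and -0.10 in i4i5ZRSreg, against -0.09 to -0.07 in the other limb maps.

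At the upper end of the region the limb maps divided by the library numbers in the sample titles. The largest deficit relative to wild type limb lay in the last bins of the map, at 1680 or 1690 kb, in 4 of the 5 limb alleles, all but i4i5, and these hold the 3 bins counted for the alleles above. At 1690 kb the score was 0.37 in i4i5ZRS, 0.37 in i4i5ZRSreg, 0.36 in ZRSreg and 0.33 in the Lmbr1 promoter allele, against 0.51 in i4i5 and 0.56 in wild type limb. The wild type limb and i4i5 libraries have consecutive, earlier numbers in their titles and the other 4 later ones. The 4 later maps lay wholly below the 2 earlier ones over all 11 bins from 1600 to 1700 kb, with means of 0.14 in the later and 0.28 in the earlier maps. Their minima near 1590 kb divided in the same way, at 1610 or 1640 kb in the later maps and at 1590 kb in the earlier ones. The midbrain maps, which also differ in library number, had means of 0.20 with the i4i5ZRS allele (later) and 0.23 in wild type (earlier). Both lay above the later limb maps, and the later midbrain map was the lower of the pair. Its largest fall below wild type midbrain among the 218 bins lay at 1590 kb (-0.10 against 0.02, difference -0.12, interval -0.18 to -0.06). In midbrain, library order cannot be told apart from allele and strain. Over all 218 bins the same split gave no overlap at 44 (20.2%), 21 higher (9.63%) and 23 lower (10.6%) in the later maps. Among these were 5 bins from -200 to -160 kb, with means of -0.15 in the later maps and -0.24 in the earlier ones. The part of library order in these differences was not tested, and the split was drawn after the values at this end had been seen. The earlier and later sets each hold maps with and without i4 and i5. However, each of the 4 later maps lacks the ZRS CTCF site, ZRSreg or the Lmbr1 promoter, and the 2 earlier maps keep all of these. Library order and these losses therefore cannot be told apart in limb.

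Over the 218 bins every limb profile resembled each other limb profile more closely than it resembled that of ES cells. Pearson's r was 0.97 for the midbrain pair, 0.88 to 0.97 for the 15 pairs of limb maps, 0.84 to 0.95 for the 12 pairs of a midbrain with a limb map, 0.82 and 0.83 for ES cells with midbrain and 0.72 to 0.83 for ES cells with limb. The profile of the Lmbr1 promoter allele was closer to midbrain than to wild type limb. Its r was 0.94 with midbrain i4i5ZRS and 0.95 with wild type midbrain, against 0.93 with wild type limb and 0.88 with limb i4i5. With the other limb alleles it was 0.95 for ZRSreg, 0.94 for i4i5ZRS and 0.93 for i4i5ZRSreg, so this profile was not closer to midbrain than to every limb map. These are descriptions across bins whose squares overlap and whose captured region is shared, and neighbouring bins are not independent.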

How the data were processed

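Capture Hi-C covered 9 groups of 19 samples. File names state that the authors merged the samples of a group, kept mapping quality 30 and applied KR balancing, and the deposited unit is a balanced signal for each pair of 10 kb bins. Juicer, SAMtools, Bowtie2 2.3.4.1, cutadapt 1.15 and mm9 appear in the submitters' processing notes. Bin totals were equal within a map and ran from 7602 to 20135 between maps, so scores are relative to the mean of each map. Pairs not listed were taken as 0.

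Whole contact counts were recovered from the signal (100% came within 0.01 of whole in each map) and used for depth and for 95% counting intervals, which are Poisson for contacts. The sources used here name no molecular identifiers, so counts may include copies of a molecule. Scores, minima, differences and observed over expected values were computed with Python 3.11.15, numpy 2.4.6 and pandas 2.3.3, and the scripts were tested on simulated maps.

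The border windows left out were bins starting at 28690001 to 28890001 and 29590001 to 29790001. Named bins are every position where a minimum lies (minima joined within 30 kb) and, per comparison, the runs with the largest rise and fall, past a difference of 0.2. Other stretches were named after their values were seen. The members and lists were chosen with earlier results of these data known. With 1 merged map per group, no test between groups was possible. Alternatives covered the square, scale, separations, normalizer, reach, depth, threshold, joining and a G4 limb background, and, added after seeing the data, counts without balancing and counts thinned to the shallowest map. No sequence is printed, since no mm9 genome was used here.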

Additional observations from a re-analysis of the deposited data

How the results depend on the processing

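No paired analysis was possible because each group was deposited as 1 merged map. Of 192 counts recomputed under an alternative, 138 stayed within 1.5 times. For the 6 differences at positions that reached 0.2, all 42 recomputed values kept their sign and 38 still reached 0.2. The 4 that did not were all of ES cells over limb: -0.13 at -790 kb, -0.09 at 1590 kb and 0.11 at -180 kb with 5 by 5 squares, and -0.15 at -790 kb without balancing. For the other 111, 671 of 816 recomputed values kept theirs and 5 reached 0.2. Where a count moved, the cause was not tested. With a reach of 150 kb the minima numbered 5 in wild type midbrain, midbrain i4i5ZRS and wild type limb, 4 in limb i4i5ZRS, i4i5ZRSreg, ZRSreg and the Lmbr1 promoter allele and 3 in limb i4i5, which had 11 with a reach of 50 kb. With 15 by 15 squares there were 5 minima in midbrain i4i5ZRS, limb i4i5ZRS, ZRSreg and wild type and 4 in i4i5ZRSreg. The positions numbered 8 with 15 by 15 squares and 8 without balancing. Bins past the threshold in wild type midbrain over limb numbered 7 with 5 by 5 squares, 20 without balancing, 37 at 0.1 and 4 at 0.3. ES cells over limb had 105 at 0.1 and 11 at 0.3. Midbrain i4i5ZRS over limb i4i5ZRS had 11 with 15 by 15 squares, with observed over expected and with separations under 5 bins left out, 19 without balancing, 36 at 0.1 and 0 at 0.3. Midbrain i4i5ZRS over wild type midbrain had 7 without balancing and 2 at 0.1. Limb i4i5 had 9 without balancing and 10 at 0.1. Limb i4i5ZRS had 0 with 5 by 5 squares, the median as normalizer, 0.3 or the G4 limb maps, 5 with observed over expected or separations under 5 bins left out, 3 with thinned counts and 12 at 0.1. Limb i4i5ZRSreg had 3 with 5 by 5 squares and 18 at 0.1. Limb ZRSreg had 2 with observed over expected or the median, 4 with separations under 5 bins left out, 1 without balancing and 8 at 0.1. The Lmbr1 promoter allele had 1 with 5 by 5 squares or thinned counts, 0 with 15 by 15 squares or 0.3, 5 with observed over expected, 4 with separations under 5 bins left out and 26 at 0.1. Counting errors of 0.01 to 0.03 are small beside a difference of 0.2, but they limit the count of bins close to that threshold. Over wild type limb, the largest fall was -0.21 in limb i4i5ZRS (interval -0.25 to -0.16) and -0.22 in the Lmbr1 promoter allele (-0.26 to -0.19). Both intervals cross -0.2. The missing replicate error limits all differences.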
